A study of Mus musculus with 60 samples.

Results

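Brown adipose tissue (BAT) and subcutaneous adipose tissue (SAT) of mice without Treg depletion were compared as whole tissue, to ask what sets the fat depots apart before any regulatory T (Treg) cell is removed. The libraries were chosen by their labels alone. They were the 14 whole-fat libraries, of 60 in the series, from DTR- mice in the sets named D4 and D3. BAT gave 7 of them (4 in D4 and 3 in D3) and SAT gave the other 7 (4 in D4 and 3 in D3). All 14 came from 8-week-old males of the strain B6.Foxp3.DTR, and all had received diphtheria toxin (DT). In DTR+ mice of this strain the receptor for the toxin is made by cells that express Foxp3, the transcription factor that defines Treg cells. DTR- mice lack that receptor, so the toxin leaves their Treg cells in place. The D3 titles also carry the term PBS, although the treatment label of those libraries reads DT, and what D3 and D4 stand for is not stated. Both sets were used together, with the set as a batch term. The matching 14 libraries of DTR+ mice (7 BAT and 7 SAT, the same age, sex, strain and toxin) entered only where stated, as libraries on which the same depot difference could be measured again.

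Brown fat is a heat-producing tissue. Its adipocytes hold many small lipid droplets and dense mitochondria, and uncoupling protein 1 (UCP1) lets protons back across the inner mitochondrial membrane without making ATP, so that fuel oxidation ends as heat. White adipocytes of subcutaneous fat hold a single large droplet, store triglyceride and secrete hormones such as leptin, adiponectin and resistin. The depots also arise from different embryonic territories, and adipocytes and their progenitors keep a positional code of HOX transcription factors. Each depot further contains fibroblasts, vessels, nerves and leukocytes, all of which contribute RNA to a whole-tissue library.

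Each library was made from 2 ng of RNA with poly(A) selection and the Smart-seq2 protocol, and held between 4941762 and 7670438 counts. Mitochondrially encoded transcripts took 12.8 to 16.0% of the counts in BAT libraries and 3.61 to 5.48% in SAT libraries. Genes of other cell types were not evenly spread among replicates. The summed level of 19 skeletal muscle genes was 4174, 3023, 3351 and 1859 CPM (each count divided by the scaled size of its library) in 4 BAT libraries (D4 replicate 3, D3 replicate 2, D4 replicate 4 and D3 replicate 3), but 34, 32.7 and 582 CPM in the other 3, and 9.68 to 560 CPM in SAT. The summed level of 23 T and NK cell genes was 376 CPM in SAT D4 replicate 3 and 44.6 to 55.6 CPM in the other SAT libraries, with 9.72 to 22.4 CPM in BAT. That library also had the highest sum of 12 naive T cell and lymph node genes, 262 CPM against 17.0 to 35.6 CPM in the other SAT libraries. Some results that these libraries touch are also given without the 4 muscle-rich BAT libraries and this SAT library. That alternative was chosen after seeing the data, and it is not given for others, Dio2 and Nr4a1 among them.

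**Figure D1:**
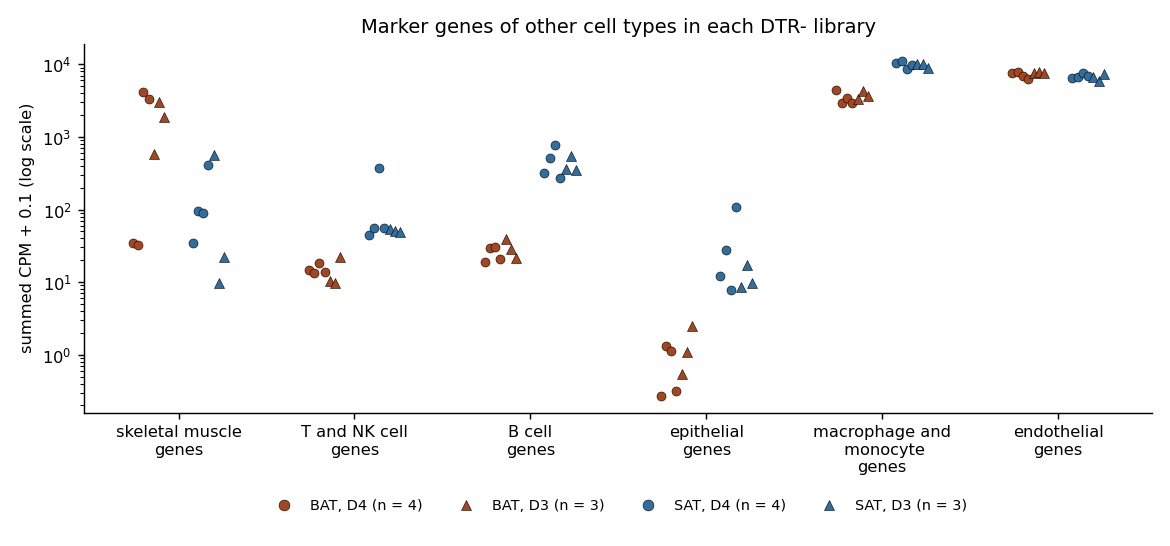
Summed level of marker lists of other cell types, in CPM plus 0.1 on a log axis, with 1 point per library, BAT left of SAT in each panel. Skeletal muscle genes reached 4174 CPM in BAT and 560 CPM in SAT, and T and NK cell genes stood at 376 CPM in SAT D4 replicate 3. The macrophage and monocyte sum includes Lpl, a lipase gene abundant in both depots, which makes up most of it.

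Foxp3 itself was too rare in whole fat to check that Treg cells were present. All 7 BAT libraries together held 6 Foxp3 counts and all 7 SAT libraries 39, of which most came from SAT D4 replicate 3, at 3.68 CPM. Il2ra, the interleukin 2 receptor alpha chain that Treg cells carry, stood at 0.172, 0.579 and 1.01 CPM in BAT (lowest, median and highest library, the order of every such trio here) and at 0.529, 1.49 and 2.79 CPM in SAT. Its ranges overlapped. The log2 fold change of BAT over SAT was -1.31 ± 0.50 (SE, adjusted p = 0.028), and the adjusted p was 0.125 without the 5 libraries named above, so no statement on Treg number is drawn from it.

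The depots differed in most of the genes that could be tested. Of 13564 genes with enough counts, 3939 (29.0%) were higher in BAT and 4216 (31.1%) were lower in BAT, 60.1% in all, by edgeR's quasi-likelihood test with Benjamini-Hochberg adjusted p under 0.05. With a log2 fold change beyond 1 as well, 1874 genes (13.8%) were higher and 2504 (18.5%) lower, 32.3% in all. The per-library values of the depots did not overlap for 2251 genes (16.6%) that were higher in BAT and 2289 (16.9%) that were lower. The median log2 fold change over all genes tested was -0.04. This balance depends on scaling: with library totals in place of trimmed-mean factors, 2143 genes were higher and 7192 lower, 23% against 48.3% higher among the called, and the median moved to -0.50, so directions of small changes below are relative to that median. The shares at adjusted p under 0.05 are the background for the list counts below, also where they are not repeated. In bulk tissue, fewer cells of a type and less RNA per cell cannot be told apart. The labels do not say that replicates were separate animals, so the p-values describe only how far these libraries varied, and part or all of that spread could be technical.

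The brown adipocyte program was far higher in BAT. Of 38 listed brown adipocyte genes, 34 could be tested, and 30 of them were higher and 1 was lower in BAT, with a median log2 fold change of 4.02 beside -0.04 for all genes and 29.0% of all genes higher. Their summed level was 20930, 24941 and 31110 CPM in BAT, against 1079, 1411 and 2168 CPM in SAT. Ucp1 (chromosome 8, 83290352 to 83298452, GRCm38), the uncoupling protein itself, had 4702, 6653 and 11394 CPM in BAT, against 1.89, 19.8 and 67.1 CPM in SAT. Every BAT library stood above every SAT library, and the SAT libraries themselves spread widely. The log2 fold change was 8.04 ± 0.90 (adjusted p = 8.4e-06), with 7.76 in the D4 libraries alone and 8.46 in the D3 libraries alone. Cidea, a lipid droplet protein of brown adipocytes, had 5616, 7075 and 7975 CPM in BAT, against 137, 268 and 493 CPM in SAT. It did not overlap between depots, with a log2 fold change of 4.70 ± 0.34 (adjusted p = 7.3e-08).

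The Ucp1 promoter is shown because Ucp1 is the defining gene of the brown program. The sequence is RefSeq's 300-base window from 250 bases before the gene's start to 50 after it, GRCm38.p6, chr8:83290098-83290397, plus strand. Capitals mark TGACG, the core of cAMP response elements, and AGGTCA, a core that nuclear receptors bind, beginning 147 and 14 bases before the start. Both strands were searched, the letters of the motifs did not overlap here, and TGACG was in 20.8% and AGGTCA in 16.3% of all such windows, and in 29.8% and 12.6% of the windows of genes tested. Of the windows of brown adipocyte genes, 22.9% held TGACG and 22.9% held AGGTCA.
Ucp1: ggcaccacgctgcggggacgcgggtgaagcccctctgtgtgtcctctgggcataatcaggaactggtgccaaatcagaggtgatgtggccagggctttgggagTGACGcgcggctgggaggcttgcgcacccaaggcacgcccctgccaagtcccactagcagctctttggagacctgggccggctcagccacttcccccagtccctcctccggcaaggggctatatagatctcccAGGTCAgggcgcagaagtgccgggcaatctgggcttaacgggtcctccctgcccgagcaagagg

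Regulators of the brown program were higher along with its effectors. Ppargc1a, the coactivator that drives mitochondrial biogenesis, had 38.2, 64.9 and 176 CPM in BAT and 7.33, 12 and 17.8 CPM in SAT, a log2 fold change of 2.64 ± 0.29 (adjusted p = 2e-06). Its sister coactivator Ppargc1b was higher by 3.41 ± 0.20, the fatty acid sensing receptor Ppara by 4.45 ± 0.29, and the estrogen-related receptors Esrra and Esrrg by 1.82 ± 0.15 and 4.63 ± 0.45. The depots did not overlap for any of these 5 genes. Prdm16, a transcription factor that specifies brown over muscle fate, stood at 17.8, 20 and 29.0 CPM in BAT and 9.52, 10.8 and 13.9 CPM in SAT. Its difference was small beside the others, 0.92 ± 0.15 (adjusted p = 2.8e-05), but the depots did not overlap. Zic1, a lineage marker of interscapular brown fat, had 37 counts in all BAT libraries together and 0 in SAT, at least 15.2-fold higher against a floor of 3 counts over the group, and was too rare to be tested.

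Other genes higher in BAT, from the brown program or among the largest folds, included some that varied widely among its libraries. Dio2, the deiodinase that activates thyroid hormone, had 10.7, 25.4 and 114 CPM in BAT and 0.404, 1.76 and 3.05 CPM in SAT, a log2 fold change of 4.52 ± 0.59 (adjusted p = 2.2e-05). The depots did not overlap, and 3 of the 4 muscle-rich BAT libraries had the 3 highest values. Elovl3, a fatty acid elongase induced in active brown fat, had 83.4 to 132 CPM in the D4 BAT libraries and 374 to 713 CPM in the D3 BAT libraries, against 0 to 6.05 CPM in SAT. Its log2 fold change was 6.87 ± 0.55 (adjusted p = 3.6e-07). Kng2, a kininogen whose reads may be shared with its close copy Kng1, was higher by 8.03 ± 0.37, and Lncbate10, a long noncoding RNA of brown fat, had 2102 counts in BAT and 0 in SAT, at least 865-fold higher. Fer1l6, a ferlin family member, had 940 counts in BAT and 3 in SAT, a ratio of 387 with a 95% counting interval of 132 to 1880.

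Several genes of the brown list did not follow it. Epsti1, which the list holds as a brown adipocyte marker and which interferon induces, had 0.352, 1.34 and 2.92 CPM in BAT, against 10.6, 17.3 and 43.3 CPM in SAT. It was lower in BAT by 3.58 on the log2 scale (-3.58 ± 0.33, adjusted p = 1.4e-08), with no overlap. Adrb3, the beta-3 adrenergic receptor, had 252, 368 and 409 CPM in BAT and 315, 418 and 531 CPM in SAT (-0.20 ± 0.12, adjusted p = 0.16), and was called lower with library totals as the scale (-0.67, adjusted p = 0.000125) and without the filter on low counts (-0.22, adjusted p = 0.0272). Lhx8, a transcription factor reported as a brown marker, had 1.84, 3.60 and 4.75 CPM in BAT and 1.56, 2.82 and 4.07 CPM in SAT (0.29 ± 0.31, adjusted p = 0.43). Irf4, a factor that partners Ppargc1a, had 10.4, 39.0 and 62.5 CPM in BAT and 15.0, 18.5 and 26.3 CPM in SAT (0.72 ± 0.33, adjusted p = 0.076). All 3 overlapped between depots. Irf4 passed the test without BAT D4 replicate 2 (0.89, adjusted p = 0.0031) and without BAT D3 replicate 1 (0.85, adjusted p = 0.0285).

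**Figure D2:**
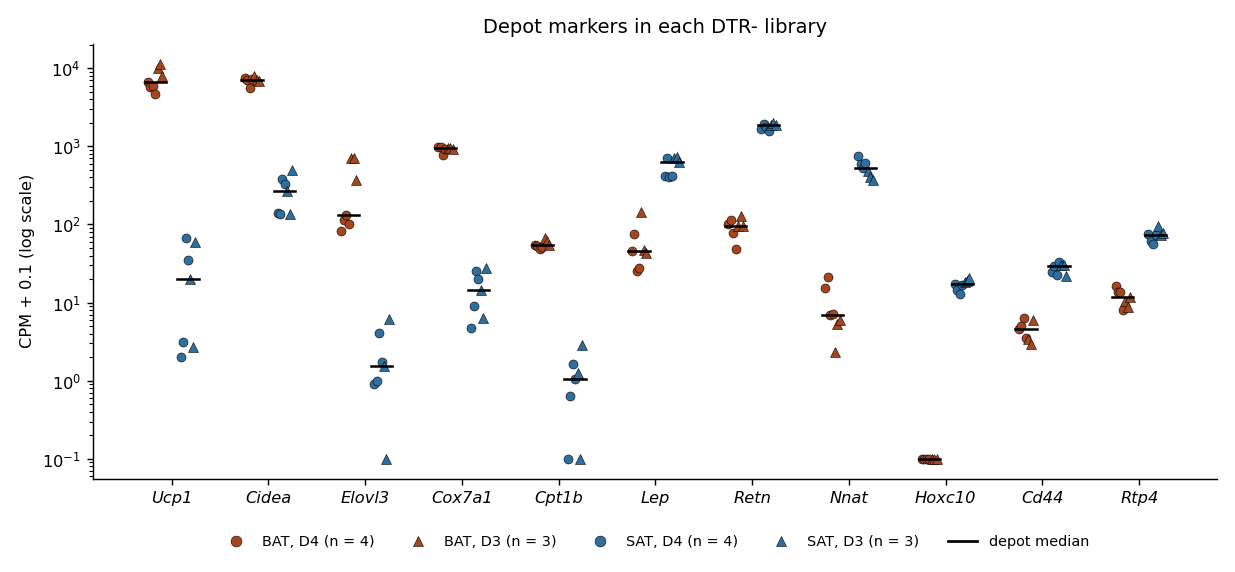
Levels of 11 genes in every library, in CPM plus 0.1 on a log axis, BAT left of SAT for each gene. Ucp1 and Cidea lie high in BAT, Lep, Retn, Nnat, Hoxc10, Cd44 and Rtp4 lie high in SAT, and no gene shown has overlapping depots.

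White adipocyte genes were the mirror of this. Of 20 listed genes, 18 could be tested, and all 18 were lower in BAT, beside 31.1% of all genes, with a median log2 fold change of -3.76. Lep, which encodes the satiety hormone leptin, had 25.2, 45.3 and 145 CPM in BAT, against 404, 622 and 731 CPM in SAT (-3.34 ± 0.35, adjusted p = 3.5e-06). Retn, which encodes resistin, had 48.1, 96.7 and 126 CPM in BAT, against 1573, 1873 and 1987 CPM in SAT (-4.27 ± 0.15, adjusted p = 8.7e-14). Neither overlapped between depots. Nnat, an imprinted proteolipid gene, was lower in BAT by 5.94 on the log2 scale, Sncg, the gamma-synuclein gene, by 5.64, Psat1, an enzyme of serine synthesis, by 4.14, and Agt, the angiotensinogen gene, by 4.10. The depots did not overlap for any of these 4 genes either.

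Genes that both kinds of adipocyte use were split. Of 18 listed, 8 were higher and 8 lower in BAT, with a median of -0.01. Fabp4, the main fatty acid binding protein of fat cells, had 5004, 6212 and 6431 CPM in BAT and 4870, 5836 and 6340 CPM in SAT (0.03 ± 0.08, adjusted p = 0.80). Adipoq, which encodes adiponectin, had 1684, 1821 and 2396 CPM in BAT, against 4209, 4730 and 4980 CPM in SAT. Its ranges did not overlap (-1.27 ± 0.09, adjusted p = 7.5e-11). With library totals in place of trimmed-mean factors, 3 of the 18 were higher and 10 lower. Of 10 genes reported as beige adipocyte markers, 9 could be tested. In BAT 2 were higher and 6 lower, beside 29.0% and 31.1% of all genes. The 2 were P2rx5, an ATP-gated channel (3.12 ± 0.22), and Slc36a2, an amino acid transporter (1.48 ± 0.09). Those lower included Tmem26, a membrane protein, with 0, 0 and 0.634 CPM in BAT and 1.05, 3.91 and 5.97 CPM in SAT (-4.56 ± 0.67), and Klhl13, a ubiquitin ligase adaptor (-3.76 ± 0.18).

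The HOX code separated the depots in both directions along the clusters. HOX genes lie in chromosomal order, with low-numbered paralogues active toward the head and high-numbered ones toward the tail. Of 39 HOX genes, 19 could be tested, and 7 were higher and 12 lower in BAT, beside 29.0% and 31.1% of all genes. In BAT 12 had no count in any library, as had 12 in SAT. Those higher in BAT included Hoxa2, Hoxa3, Hoxa4, Hoxa5, Hoxc4 and Hoxc5 and none above paralogue group 5, and those lower were all of groups 5 to 10. Hoxa5 (chromosome 6, 52201754 to 52204587) had 4.98, 6.87 and 10.2 CPM in BAT, against 0.394, 0.649 and 1.75 CPM in SAT, with no overlap (3.08 ± 0.33, adjusted p = 6.7e-08). Hoxc10 (chromosome 15, 102966796 to 102971893) had no count in any BAT library, against 12.9, 17.1 and 20.2 CPM in SAT, so it was at least 226-fold lower in BAT against a floor of 3 counts over the group. Hoxc9 had 3 counts in BAT and 743 in SAT, a SAT over BAT ratio of 201 with a counting interval of 68.4 to 975. Hoxa10 had 2 counts in BAT and 555 in SAT, a SAT over BAT ratio of 225 with an interval of 61.9 to 1860.

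Within the HOXA cluster the sign turned between Hoxa5 and Hoxa7. Hoxa4 was higher in BAT by 3.87 ± 0.59 and Hoxa2 by 2.30 ± 0.60, whereas Hoxa7 was lower by 0.50 on the log2 scale (-0.50 ± 0.15) and Hoxa9 by 3.08 (-3.08 ± 0.29). In the HOXC cluster Hoxc4 (1.55 ± 0.35) and Hoxc5 (0.97 ± 0.16) were higher, and Hoxc6 (-1.21 ± 0.33) and Hoxc8 (-3.30 ± 0.26) lower. Hoxb5 was the exception within group 5 (-1.92 ± 0.30), and Hoxb6 (-2.22 ± 0.50), Hoxb7 (-2.08 ± 0.30), Hoxd8 (-0.90 ± 0.37) and Hoxd9 (-1.95 ± 0.57) were lower as well. Calls on low or small members were the least firm: Hoxa3 (1.03 ± 0.39), Hoxa7, Hoxc4, Hoxd8 and Hoxd9 lost theirs without the 5 libraries named above or when single libraries were left out, with adjusted p up to 0.271, and Hoxc6 in the D3 libraries alone (adjusted p = 0.059). The annotated Hoxa3 and Hoxc5 genes span other HOX genes, and the library protocol does not keep the strand, so reads of overlapping genes cannot be told apart.

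**Figure D3:**
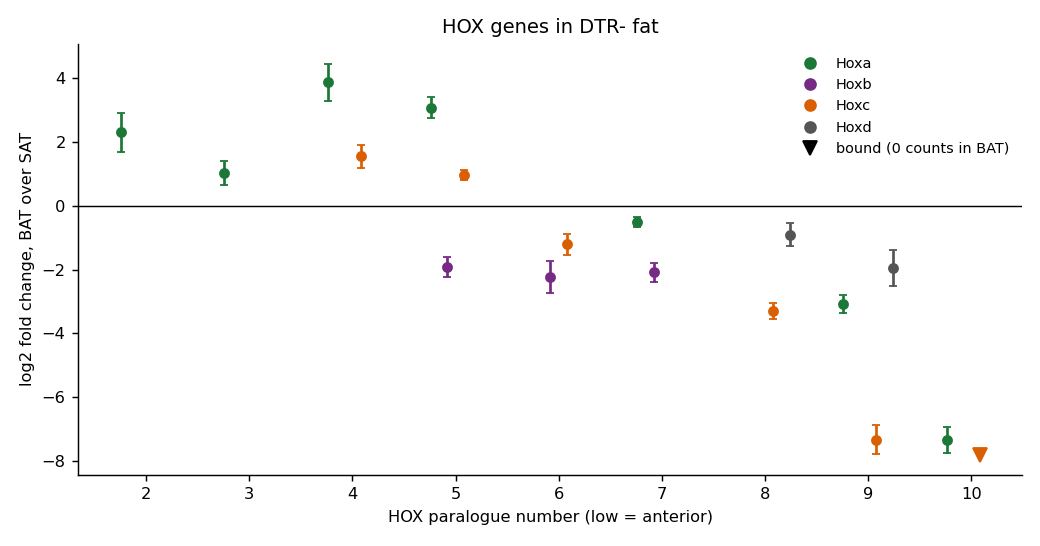
Log2 fold change of BAT over SAT with its SE for 18 of the tested HOX genes, by paralogue group on the horizontal axis and cluster by color. The triangle marks Hoxc10, whose value is the bound against a floor of 3 counts. Genes of groups 2 to 4 lie above 0 and genes of groups 6 to 10 below it.

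Other developmental transcription factors differed about as often as all genes. Of 38 listed, 19 could be tested, and 3 were higher and 10 lower in BAT, beside 60.1% of all genes called, and with library totals as the scale 1 was higher and 13 lower. Tbx5, a T-box factor of the heart and forelimb field, had 2.75, 8.21 and 8.79 CPM in BAT, against 0.176, 1.06 and 2.16 CPM in SAT (2.35 ± 0.40, adjusted p = 4.1e-05), with no overlap. Tbx3, a T-box factor of limb and mammary development, was higher by 0.77 ± 0.23 but overlapped between depots and lost its call with library totals as the scale. Shox2, a limb homeobox factor, had 0.424, 1.54 and 2.85 CPM in BAT and 14, 19.5 and 22.0 CPM in SAT (-3.47 ± 0.23). Osr1 (-3.71 ± 0.28), a zinc finger factor of connective tissue, and Tbx15 (-1.99 ± 0.41), a T-box factor of subcutaneous fat, were also lower in BAT, with no overlap for any of these 3.

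Oxidative phosphorylation genes were higher in BAT almost without exception. The respiratory chain passes electrons through complexes I to IV and pumps protons, and complex V makes ATP from the gradient. All 36 nuclear subunits of complex I were higher, with a median log2 fold change of 2.03 and a summed level of 27438, 31011 and 33966 CPM in BAT, against 6146, 7232 and 8528 CPM in SAT. Of 36 nuclear subunits of complexes II to V, 33 were higher and 2 lower. Atp5b, the catalytic beta subunit of complex V, had 9416, 10380 and 11509 CPM in BAT, against 2103, 2672 and 3121 CPM in SAT, with no overlap (1.94 ± 0.09, adjusted p = 2.4e-13). All 13 mitochondrially encoded protein genes were higher, with a median of 2.19, among them mt-Nd1 of complex I (2.38 ± 0.13) and mt-Cytb of complex III (2.25 ± 0.12). Without the 5 libraries named above, all 36 complex I subunits and all 13 mitochondrially encoded genes were still called higher, with a complex I median of 2.15.

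The 2 lower genes were both for the c-ring of complex V. Its proton-carrying c subunit is made from Atp5g1, Atp5g2 and Atp5g3, which encode the same mature protein. Atp5g1 had 5.63, 10.1 and 14.5 CPM in BAT, against 32.4, 36.4 and 40.7 CPM in SAT, with no overlap (-1.96 ± 0.18, adjusted p = 1.1e-08). Atp5g3 had 332, 347 and 378 CPM in BAT, against 351, 430 and 448 CPM in SAT, with overlap (-0.25 ± 0.07, adjusted p = 0.003), and lost its call within either set alone. No value is given here for Atp5g2, so nothing is said of the c subunit's transcripts as a whole. The subunit without a call was Atp5j (0.08 ± 0.08, adjusted p = 0.41).

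Cytochrome c oxidase, complex IV, differed in its isoforms beside being higher as a whole. Cox7a1 and Cox8b are the forms of heart and brown fat, and Cox7a2 and Cox8a those of most tissues. Of 14 isoform genes, 12 could be tested and all 12 were higher in BAT, with a median of 2.22. Cox7a1 had 780, 956 and 978 CPM in BAT, against 4.58, 14.3 and 27.6 CPM in SAT (5.91 ± 0.39), and Cox7a2 had 1220, 1273 and 1429 CPM in BAT, against 292, 328 and 396 CPM in SAT (1.91 ± 0.08). Per kilobase of exonic sequence, the Cox7a1 level averaged 1731 CPM and that of Cox7a2 1360 CPM in BAT, whereas in SAT Cox7a1 averaged 28.3 CPM and Cox7a2 362 CPM. The same order held for Cox8b and Cox8a, at 6711 and 3415 CPM per kilobase in BAT and 368 and 1162 CPM per kilobase in SAT. Log2 fold changes of Cox8b (4.19 ± 0.19) and Cox8a (1.56 ± 0.08) were both above 0, and neither gene overlapped between depots. Cox6a2, a striated muscle form, had 0, 6.34 and 16.5 CPM in BAT and 0, 0.394 and 1.69 CPM in SAT (3.46 ± 1.05), and its value was -0.31 (adjusted p = 0.86) without the 5 libraries named above.

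**Figure D4:**
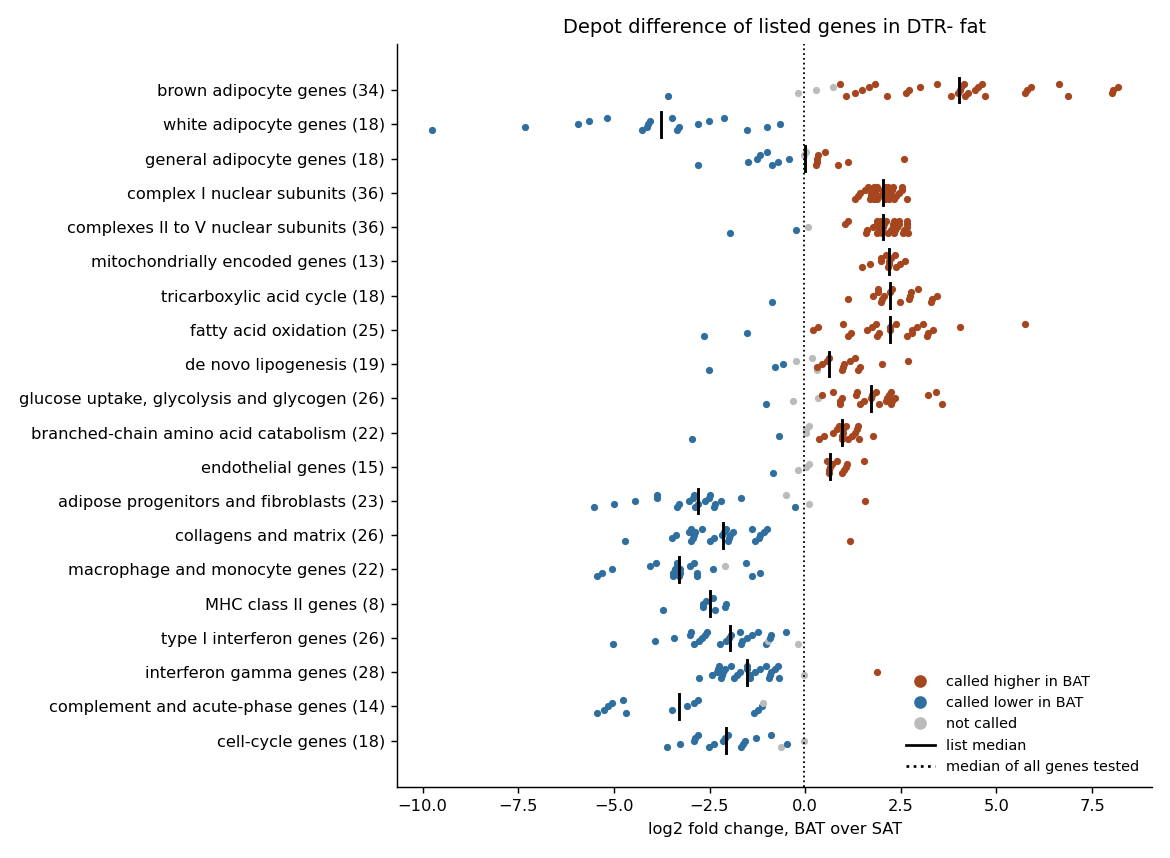
Log2 fold change of BAT over SAT for the tested genes of 20 lists, 1 point per gene, with each list's median as a bar and the median of all genes, -0.04, as a dotted line. Complex I lies wholly above 0, and the white adipocyte and MHC class II lists lie wholly below it.

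Fuel oxidation upstream of the chain was higher too. Of 18 tricarboxylic acid cycle genes, 17 were higher in BAT and 1 lower, with a median of 2.23. Of 25 fatty acid oxidation genes, 23 were higher and 2 lower, with a median of 2.22. Among all genes 29.0% were higher and 31.1% lower. Acadvl, the very long chain acyl-CoA dehydrogenase, had 1926, 2231 and 2713 CPM in BAT, against 179, 233 and 320 CPM in SAT (3.21 ± 0.11, adjusted p = 9.8e-15), with no overlap. The lower member of the cycle list was Pcx (-0.86 ± 0.11), pyruvate carboxylase, which fills the cycle and feeds fat synthesis. The lower members of the oxidation list were Abcd2, a peroxisomal fatty acid transporter (-2.64 ± 0.12), and Cpt1a.

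Carnitine palmitoyltransferase 1, the gate for fatty acid entry into mitochondria, also differed by isoform. Cpt1b, the muscle and brown fat form, had 49.1, 54.9 and 67.1 CPM in BAT, against 0, 0.950 and 2.76 CPM in SAT, with no overlap (5.74 ± 0.35, adjusted p = 9.8e-10). Cpt1a, the liver form, had 5.80, 10.5 and 15.6 CPM in BAT and 14.4, 33.6 and 57.7 CPM in SAT (-1.52 ± 0.31, adjusted p = 0.00057), with overlap. In the D3 libraries alone Cpt1a did not pass the test (-0.50, adjusted p = 0.153). Fabp3, the heart fatty acid binding protein, was higher in BAT by 8.18 ± 0.47, and Slc27a2, a very long chain acyl-CoA synthetase, by 6.64 ± 0.49. Slc27a1, a fatty acid transport protein, went the other way (-1.45 ± 0.13). Many of these genes are also muscle genes. Without the 5 libraries named above, Cpt1b stood at 6.08, Fabp3 at 8.54 and Cox7a1 at 6.22. With SAT D3 replicate 3 alone left out, these genes stood at 6.23, 8.67 and 6.18. Whether muscle adds to their level in BAT was not tested.

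Genes of glucose use were higher as well, and most of fat synthesis. Of 26 genes of glucose uptake, glycolysis and glycogen, 23 were higher in BAT and 1 lower, beside 29.0% and 31.1% of all genes. The median was 1.73. Slc2a4, the insulin-responsive glucose transporter GLUT4, had 508, 687 and 1042 CPM in BAT, against 206, 297 and 375 CPM in SAT, with no overlap (1.35 ± 0.10, adjusted p = 4.3e-10). Hk2, which phosphorylates the sugar, was higher by 2.15 ± 0.14, and Ldhb, the lactate dehydrogenase subunit of oxidative tissue, by 3.58 ± 0.11. The lower member was Pygb, the brain glycogen phosphorylase (-1.02 ± 0.09). Of 19 de novo lipogenesis genes, 13 were higher and 3 lower, with 9 higher and 4 lower when library totals were the scale. In DTR+ fat 3 of them were higher and 4 lower, and the genotypes' depot differences differed for 3 of the 19. Acacb, the mitochondrial acetyl-CoA carboxylase whose product restrains fatty acid entry, was higher by 2.68 ± 0.12, and Mlxipl, the sugar-sensing factor ChREBP, by 2.00 ± 0.16. Fasn, fatty acid synthase, had 9804, 18169 and 25325 CPM in BAT and 4322, 8660 and 13640 CPM in SAT, with overlap (1.02 ± 0.19, adjusted p = 0.00022). The 3 lower genes were Fads1 (-2.51 ± 0.15) and Fads2 (-0.58 ± 0.20), desaturases of polyunsaturated fatty acids, and Me1 (-0.78 ± 0.29), malic enzyme. Of these 3, Me1 and Fads2 lost their call without the 5 libraries named above (adjusted p = 0.321 and 0.155).

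Enzymes that build and break down triglyceride and branched-chain amino acids leaned the same way. Of 13 triglyceride synthesis genes, 9 were higher in BAT and 3 lower, beside 29.0% and 31.1% of all genes. Gpd1, which makes glycerol 3-phosphate, stood at 2.58 ± 0.14. The 3 lower genes were Gpat3, a glycerol 3-phosphate acyltransferase (-2.95 ± 0.19), and the monoacylglycerol acyltransferases Mogat1 (-1.67 ± 0.16) and Mogat2 (-0.86 ± 0.35), of which Mogat2 lost its call when any of 8 single libraries was left out. Of 17 genes of lipolysis and droplet proteins, 10 were higher and 5 lower, led by Plin5, the droplet protein that tethers mitochondria, with 466, 569 and 700 CPM in BAT, against 22.1, 32.0 and 60.6 CPM in SAT (4.06 ± 0.19). Pnpla2, the adipose triglyceride lipase, was higher by 0.87 ± 0.08. The 5 lower genes were Plin4, a coat protein of nascent droplets (-1.49 ± 0.09), Cidec, which fuses droplets into large ones (-0.99 ± 0.15), Abhd5, the coactivator of the lipase (-0.43 ± 0.12), Bscl2, seipin (-0.36 ± 0.07), and Mgll, monoacylglycerol lipase (-0.30 ± 0.10). Of these, Plin4 and Cidec did not overlap between depots, and Mgll and Abhd5 did not pass in the D3 libraries alone. With library totals as the scale that list had 7 higher and 7 lower. Of 22 branched-chain amino acid genes, 17 were higher and 2 lower, or 15 and 5 with library totals. Bckdha, of the committed dehydrogenase step, was higher by 1.76 ± 0.08. The 2 lower genes were those of the first, reversible step, the transaminases Bcat1 (-2.95 ± 0.39) and Bcat2 (-0.68 ± 0.17), and Bcat2 did not pass in the D4 libraries alone (-0.59, adjusted p = 0.065).

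Genes of uncoupling, creatine and calcium cycling did not move as a block. Of 17 listed, 14 could be tested, and 10 were higher and 3 lower in BAT. Without BAT D4 replicate 3, the library with the highest sum of muscle genes, 8 were higher and 3 lower. The same counts came with the replicate block and with library totals as the scale. Ucp3, an Ucp1 relative of muscle and brown fat, had 121, 133 and 167 CPM in BAT, against 20.1, 35.3 and 45.3 CPM in SAT (1.93 ± 0.14). Ucp2, the relative that leukocytes also express, was lower in BAT (-0.88 ± 0.12). The other 2 lower genes were both steps of creatine synthesis, Gatm (-2.01 ± 0.19) and Gamt (-2.03 ± 0.15), and neither overlapped between depots. For Gatm, BAT had 4.04, 5.84 and 7.50 CPM and SAT 13.8, 22.2 and 33.2 CPM.

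Secreted factors were mostly lower in BAT. Of 25 listed, 20 could be tested, and 6 were higher and 12 lower, with a median of -1.40. Among all genes 29.0% were higher and 31.1% lower. With library totals as the scale, 4 genes of the list were higher and 12 lower. Cfd, which encodes adipsin, a complement protease that white fat secretes in quantity, had 3237, 4476 and 5274 CPM in BAT, against 24622, 29566 and 38538 CPM in SAT (-2.80 ± 0.12, adjusted p = 9.7e-14). Igf1, insulin-like growth factor 1, was lower by 3.21 on the log2 scale (-3.21 ± 0.12). Higher in BAT were Nampt, an enzyme of NAD synthesis that is also secreted (1.68 ± 0.09), Nrg4, a growth factor of brown fat (1.30 ± 0.10), and Ptgds, which makes prostaglandin D2 (4.05 ± 0.61). Of the nuclear genes with the largest difference in level, Gsn, the actin-severing protein gelsolin, had 1544, 1911 and 2811 CPM in BAT, against 15616, 19260 and 24723 CPM in SAT (-3.34 ± 0.16). Trf, the iron carrier transferrin, was lower in BAT by 4.31 (-4.31 ± 0.17), and Car3, a carbonic anhydrase of adipocytes, by 1.69 (-1.69 ± 0.12).

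Receptors through which fat senses hormones and metabolites differed in both directions. Of 24 listed, 18 could be tested, and 8 were higher and 7 lower in BAT, beside 29.0% and 31.1% of all genes. The median of 0.06 became -0.40 with library totals as the scale, with 4 higher and 10 lower. The adrenergic receptors Adrb1 (2.83 ± 0.41) and Adra1a (2.28 ± 0.15) were higher, unlike Adrb3 described above, with 66.8, 80.9 and 101 CPM for Adra1a in BAT and 10.7, 17.1 and 25.9 CPM in SAT. Ffar2, a receptor for short-chain fatty acids, had 1.10, 1.48 and 5.49 CPM in BAT, against 77.5, 114 and 137 CPM in SAT (-5.63 ± 0.22, adjusted p = 1.4e-13). Tshr, the thyrotropin receptor (-2.77 ± 0.12), and Mc2r, the corticotropin receptor (-2.66 ± 0.19), were lower in BAT too. None of these 5 receptors overlapped between depots.

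Stromal genes were lower in BAT nearly throughout. Of 23 genes of adipose progenitors and fibroblasts, 20 were lower and 1 was higher, with a median of -2.79. Of 26 collagen and matrix genes, 25 were lower and 1 was higher, with a median of -2.15. Among all genes 31.1% were lower and 29.0% higher. Dpp4, a marker of interstitial progenitors, had 0, 1.20 and 2.46 CPM in BAT, against 32.7, 59.2 and 83.5 CPM in SAT (-5.51 ± 0.36). Pi16, a marker of universal fibroblasts, was lower by 5.00 on the log2 scale (-5.00 ± 0.30), Dpt, the matrix protein dermatopontin, by 4.44 (-4.44 ± 0.14), and Pdgfra, the growth factor receptor of progenitors, by 2.19 (-2.19 ± 0.19). Col1a1 and Col3a1, the main fibrillar collagens, stood at -2.92 ± 0.26 and -3.04 ± 0.22. The exceptions were F3, tissue factor (1.57 ± 0.22), which marks a progenitor subset in subcutaneous fat, and Mgp, a matrix protein that blocks calcification, with 52.2, 59.1 and 70.4 CPM in BAT and 21.3, 26.3 and 32.6 CPM in SAT (1.18 ± 0.10).

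Vessel genes mostly went the other way, and nerve sheath genes were called about as often as all genes. Of 15 endothelial genes, 11 were higher in BAT and 1 was lower, with a median of 0.64, and with library totals as the scale 6 were higher and 4 lower. Kdr, the main receptor of vascular endothelial growth factor, was higher by 1.02 ± 0.11, Pecam1, a junction protein of endothelium, by 0.83 ± 0.11, and Tie1, an endothelial receptor kinase, by 1.53 ± 0.13. The lower gene was Vwf, von Willebrand factor (-0.83 ± 0.21), which overlapped and did not pass in the D3 libraries alone. Of 14 Schwann cell and nerve genes, 10 could be tested, and 6 were lower and none higher in BAT. Of all genes, 31.1% were lower and 60.1% were called in either direction.

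Macrophage genes were lower in BAT. Of 22 macrophage and monocyte genes, 21 were lower in BAT and none higher, beside 31.1% of all genes, with a median of -3.29. All 22 were lower without the 5 libraries named above. The list includes Lpl, described below, which is abundant in both depots and makes up most of the list's summed level. Adgre1, the pan-macrophage receptor F4/80, had 3.09, 4.92 and 22.0 CPM in BAT, against 37.1, 90.1 and 115 CPM in SAT (-3.28 ± 0.45, adjusted p = 3.8e-05). Markers of resident macrophages were lower. Lyve1, a hyaluronan receptor, had 0.221, 0.634 and 4.46 CPM in BAT, against 24.9, 60.3 and 91.6 CPM in SAT (-5.31 ± 0.47), Folr2, a folate receptor, stood at -5.05 ± 0.33, Timd4, a receptor for apoptotic cells, at -4.05 ± 0.39, and Cd163, a hemoglobin scavenger receptor, at -3.46 ± 0.24. Without BAT D4 replicate 1, Lyve1 stood at -5.96. Ccr2, the chemokine receptor of monocytes (-3.46 ± 0.36), and Plac8, a monocyte gene (-5.43 ± 0.37), were lower as well. None of these 7 genes overlapped between depots. Lyve1 is also a lymphatic endothelial gene.

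Type 2 immune and antigen presentation genes were lower with them. Of 11 type 2 immune genes, 7 could be tested and 6 were lower in BAT. Retnla, a marker of alternatively activated macrophages, had 5.09, 8.10 and 13.0 CPM in BAT, against 175, 308 and 459 CPM in SAT (-5.10 ± 0.28), Ccl24, an eosinophil chemokine, stood at -4.35 ± 0.44, and Il33, the alarmin of stromal cells that sustains fat Treg cells, at -3.88 ± 0.38. All 8 tested genes of MHC class II were lower, beside 31.1% of all genes. The summed level over the list was 246, 348 and 427 CPM in BAT, against 1184, 1919 and 2606 CPM in SAT. H2-Ab1, a class II beta chain, stood at -2.59 ± 0.13 and Cd74, the class II chaperone, at -2.67 ± 0.13.

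Of 16 Treg cell genes, 7 could be tested, 5 were lower in BAT and 1 was higher, all of them made by other cells of fat too. Rora, a nuclear receptor of innate and tissue lymphocytes that adipocytes and stroma also make, had 18.4, 22.9 and 26.9 CPM in BAT, against 37.2, 50.4 and 54.2 CPM in SAT, with no overlap (-1.09 ± 0.12, adjusted p = 7.2e-08). Il2ra, described above, Gata3 (-2.16 ± 0.65), a factor of type 2 lymphocytes, Il1rl1 (-2.58 ± 0.67), the receptor of interleukin 33, and Tnfrsf18 (-1.39 ± 0.41), a costimulatory receptor, were lower with overlap. Il1rl1 stood at -3.35 without BAT D4 replicate 4 and did not pass in the D4 libraries alone (-2.22, adjusted p = 0.0607), and Gata3 stood at -1.54 without SAT D4 replicate 4. Tnfrsf18 did not pass without the 5 libraries named above (adjusted p = 0.253). Ikzf2, the factor Helios, was higher by 0.65 ± 0.24, and by 0.29 with adjusted p = 0.419 in the D4 libraries alone.

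Lymphocyte genes were rare and rested in part on 1 library. Of 23 T and NK cell genes, 16 could be tested and 14 were lower in BAT, 11 without SAT D4 replicate 3 and 9 with DESeq2. Cd3e, a chain of the T cell receptor complex, had 0, 0.343 and 1.68 CPM in BAT and 0.353, 1.75 and 26.7 CPM in SAT, with overlap (-2.85 ± 0.97, adjusted p = 0.020). Without SAT D4 replicate 3 its value was -1.30 (adjusted p = 0.070). Of 4 tested B cell genes, 3 were lower, and 1 with DESeq2. Ighm, the IgM heavy chain, had 12.9, 23.2 and 34.6 CPM in BAT, against 262, 352 and 533 CPM in SAT, with no overlap (-4.16 ± 0.22, adjusted p = 6.2e-10), and Cxcl13, the chemokine that draws B cells, stood at -4.52 ± 0.53.

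Cd44 and Rtp4, which with Ucp1 and Cidea were set as markers of this comparison, were both lower in BAT. Cd44 (chromosome 2, 102811141 to 102901665), the hyaluronan receptor of activated lymphocytes, myeloid cells and progenitors, had 2.85, 4.46 and 6.22 CPM in BAT, against 21.8, 29.1 and 32.7 CPM in SAT. No BAT library came near a SAT library, and the log2 fold change was -2.61 ± 0.18 (adjusted p = 1.4e-10). Rtp4 (chromosome 16, 23520291 to 23614222), a chaperone of receptors that type I interferon induces, had 7.84, 11.6 and 16.1 CPM in BAT, against 56.2, 74.1 and 96.8 CPM in SAT. It did not overlap either, at -2.63 ± 0.16 (adjusted p = 1.1e-11).

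Rtp4 was not alone among interferon genes. Interferons signal through surface receptors and kinases to a large set of antiviral and antigen-processing genes that are also expressed at a low level without infection. Of 26 type I interferon genes, 24 were lower in BAT and none higher, with a median of -1.97. Of 29 interferon gamma genes, 28 could be tested, 26 were lower and 1 was higher, with a median of -1.51. Among all genes 31.1% were lower and 29.0% higher. Zbp1, a sensor of nucleic acids, had 0.858, 1.88 and 2.85 CPM in BAT, against 18.5, 24.2 and 37.9 CPM in SAT (-3.92 ± 0.23, adjusted p = 9.1e-12). Irf7, a transcription factor that amplifies the response, had 8.24, 13.9 and 15.5 CPM in BAT, against 66.6, 90.8 and 113 CPM in SAT (-2.90 ± 0.18, adjusted p = 6.6e-11). Neither overlapped. Ifit3, whose reads may be shared with its near copy Ifit3b, stood at -2.57 ± 0.17, Oasl2 of the oligoadenylate synthetase family at -3.01 ± 0.18, Isg15, the ubiquitin-like modifier, at -1.98 ± 0.21, and Bst2, which tethers budding viruses, at -1.51 ± 0.11. The 2 type I genes without a call were Rsad2 (-0.19 ± 0.12), an antiviral radical enzyme, and Mx2 (-0.97 ± 0.43, adjusted p = 0.058), an antiviral GTPase. Rsad2 passed with library totals as the scale (-0.65, adjusted p = 8.5e-05). Mx2 passed in 9 alternatives, among them DESeq2 (adjusted p = 0.027), the replicate block (adjusted p = 0.0499) and the fit without the 5 libraries named above (-2.06, adjusted p = 0.013).

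Antigen-processing genes were among the abundant ones. B2m, the light chain of MHC class I, had 499.7, 553 and 724 CPM in BAT, against 2522, 2820 and 3056 CPM in SAT, with no overlap (-2.28 ± 0.08, adjusted p = 1.2e-14). H2-D1, a class I heavy chain whose reads may be shared with other H2 genes, stood at -2.25 ± 0.09, and Psmb8, an immunoproteasome subunit, at -2.20 ± 0.12. Ifi27l2a, a mitochondrial interferon-induced protein with a close copy, had 774, 974 and 1303 CPM in BAT, against 3958, 5323 and 7121 CPM in SAT (-2.46 ± 0.14). Cd274, which encodes the checkpoint ligand PD-L1 and which interferon gamma induces, was the member that was higher in BAT, with 58.0, 79.9 and 114 CPM in BAT and 16.7, 22.6 and 30.2 CPM in SAT (1.89 ± 0.15, adjusted p = 1e-09).

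The promoters of 3 type I interferon genes called lower in BAT are shown as examples of windows with at least 2 copies of an interferon response sequence. The list was made of interferon genes, so its share of that sequence is no separate support for the depot difference. The interferon-stimulated response element has the core GAAA, any 2 bases, GAAA, which reads TTTC, any 2 bases, TTTC on the other strand. With both strands searched, it was in 11 of 21 windows of the type I list (52.4%, from 11 of 19 genes with a window) and in 41.7% of those of the interferon gamma list, beside 3.44% of all windows. The 11 genes with a core included Rsad2, which was not called. Among genes lower in BAT beyond log2 of 1 it was in 5.95% of windows, and among genes higher beyond log2 of 1 in 1.89%. The lower group includes genes of these lists, and 3.24% of the windows of genes tested held the core. Capitals mark the core, and neighboring cores may overlap. The windows are RefSeq's on GRCm38.p6: chr8:71537423-71537722 on the minus strand for Bst2, with cores beginning 130 and 124 bases before the start, chr19:34583279-34583578 on the plus strand for Ifit3, with cores 156 and 122 bases before it, and chr4:156200769-156201068 on the minus strand for Isg15, with cores 78, 72 and 66 bases before it.
Bst2: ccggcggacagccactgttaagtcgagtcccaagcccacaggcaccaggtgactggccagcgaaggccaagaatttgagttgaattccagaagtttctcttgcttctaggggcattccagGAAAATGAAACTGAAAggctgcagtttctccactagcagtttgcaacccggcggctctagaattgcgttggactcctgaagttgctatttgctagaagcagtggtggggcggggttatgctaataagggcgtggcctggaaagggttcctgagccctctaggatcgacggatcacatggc
Ifit3: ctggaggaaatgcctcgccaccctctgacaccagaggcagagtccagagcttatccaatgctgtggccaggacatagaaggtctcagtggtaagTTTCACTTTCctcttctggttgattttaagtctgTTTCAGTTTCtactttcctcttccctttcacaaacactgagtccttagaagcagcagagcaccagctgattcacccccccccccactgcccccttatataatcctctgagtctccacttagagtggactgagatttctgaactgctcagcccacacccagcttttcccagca
Isg15: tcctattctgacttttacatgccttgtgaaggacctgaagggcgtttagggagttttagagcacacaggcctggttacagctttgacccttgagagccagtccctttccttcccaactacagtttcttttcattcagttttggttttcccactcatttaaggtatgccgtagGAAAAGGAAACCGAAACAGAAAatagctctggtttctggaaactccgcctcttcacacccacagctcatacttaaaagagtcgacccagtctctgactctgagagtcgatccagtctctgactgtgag

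The depot difference in interferon genes was not the same in DTR+ mice, whose Treg cells the toxin targets. The 14 DTR+ libraries gave a depot difference of their own, with 3389 genes (24.8%) higher in BAT and 3634 (26.6%) lower of 13643 tested (51.5% in either direction), and 2788 genes were called higher and 3016 lower in both genotypes, with 40 called in opposite directions. In a fit of all 28 libraries, the depot difference itself differed between genotypes for 1116 of 14449 genes (7.72%), 739 (5.11%) with a larger value in DTR+ and 377 (2.61%) with a smaller value. Type I interferon genes made 20 of these increases and none of the decreases, and interferon gamma genes 19 and none. The depot difference of Rtp4 was -0.93 in DTR+ fat and -2.63 in DTR- fat, a genotype difference of 1.76 ± 0.22 (adjusted p = 1.5e-05). That of Zbp1 was -1.28 in DTR+ and -3.92 in DTR- fat (2.72 ± 0.41, adjusted p = 0.00016), and that of Irf7 was -1.09 in DTR+ and -2.90 in DTR- fat (1.86 ± 0.30, adjusted p = 0.00048). Rsad2 was called higher in BAT in DTR+ fat, at 0.84, beside -0.19 in DTR- fat (1.09 ± 0.21, adjusted p = 0.0015). In all of these the gap between depots was narrower or turned in DTR+ fat.

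**Figure D5:**
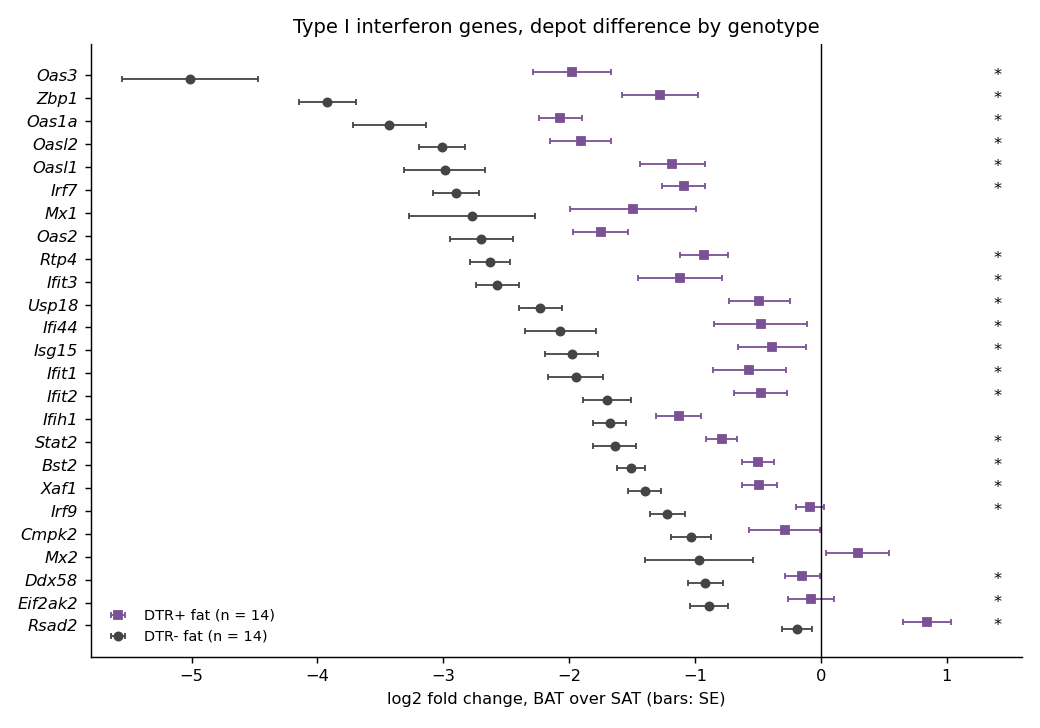
Log2 fold change of BAT over SAT for 25 of the 26 type I interferon genes, with squares for DTR+ libraries and circles for DTR- libraries, and an asterisk where the genotypes' depot differences differed with adjusted p under 0.05, as they did for 20 genes. The DTR- circles lie below 0 and the DTR+ squares nearer to 0 or above it.

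Cd44 and some leukocyte, stromal and cell-cycle genes showed the same pattern, whereas Ucp1 and Cidea were not called. The depot difference of Cd44 was -0.10 in DTR+ fat and -2.61 in DTR- fat (2.58 ± 0.29, adjusted p = 6.6e-06). Collagen and matrix genes made 8 increases (of 26 genes), progenitor and fibroblast genes 6 (of 23) and cell-cycle genes 6 (of 18). None of these 3 lists had a decrease. Macrophage genes made 9 increases and no decrease, among them Ccr2 with -1.42 in DTR+ and -3.46 in DTR- fat (2.10 ± 0.40, adjusted p = 0.0016), whereas Lyve1 stood at -5.35 in DTR+ and -5.31 in DTR- fat and Cd163 at -4.40 in DTR+ and -3.46 in DTR- fat, neither with a call for the difference. Ucp1 was at 7.52 in DTR+ and 8.04 in DTR- fat (-0.52 ± 1.56, adjusted p = 0.91) and Cidea at 4.61 in DTR+ and 4.70 in DTR- fat (-0.04 ± 0.39, adjusted p = 0.97), and 1 of the brown list differed, Epsti1 (1.72 ± 0.40, adjusted p = 0.0065). No HOX gene was called for a difference between genotypes. Complex I had the opposite sign: 22 of its 36 subunits had a smaller depot difference in DTR+ fat and none a larger one, while all 36 were higher in BAT in both genotypes, with a median of 1.59 in DTR+ fat and 2.03 in DTR- fat. Decreases without an increase were also called for complexes II to V (15 of 36 genes), fatty acid oxidation (7 of 25) and glucose genes (7 of 26). The split of the 1116 genes depends on scaling, with 66.2% above 0 here, 54.1% with relative log expression factors and 96.2% with library totals. With library totals 72 genes in all had a smaller value in DTR+ fat, against 377 here. The decreases of complex I and the other lists were not counted on that scale.

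Complement and proliferation genes were mostly lower in BAT too. Of 14 complement and acute-phase genes, 13 were lower in BAT, beside 31.1% of all genes, with a median of -3.29. C4b, complement component 4, had 13.4, 23.4 and 40.3 CPM in BAT, against 662, 919 and 1159 CPM in SAT (-5.15 ± 0.24), and Cfb, factor B of the alternative pathway, stood at -5.25 ± 0.23. Both had a smaller gap in DTR+ fat, by 1.38 and 1.23. Of 18 cell-cycle genes, 16 were lower in BAT and none higher, beside 31.1% and 29.0% of all genes. Their summed level was 66.1, 74.2 and 84.9 CPM in BAT, against 198, 205 and 220.0 CPM in SAT. The sums did not overlap.

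Clock and immediate-early genes varied with the library as well as with the depot. Of 17 circadian clock genes, 9 were higher in BAT and 3 lower, with a median of 0.78. Of all genes, 29.0% were higher and 60.1% were called in either direction. With library totals as the scale, 4 clock genes were higher and 4 lower. Per3, a period gene, had 45.4, 66.9 and 99.7 CPM in BAT, against 17.0, 24.0 and 37.7 CPM in SAT (1.37 ± 0.20). The 3 lower genes were of the activating arm or its repressor, Arntl (-0.85 ± 0.15), Npas2 (-1.51 ± 0.40) and Cry2 (-0.60 ± 0.16), and Npas2 and Cry2 each lost their call within a set. The hour of collection is not given in the sources used here. Of 20 immediate-early genes, 19 could be tested, and 7 were higher and 4 lower in BAT, a share near the 60.1% of all genes that were called. With library totals as the scale the counts turned to 4 higher and 7 lower. The 4 were Egr2 (-2.44 ± 0.38), Egr3 (-1.34 ± 0.53), Atf3 (-0.90 ± 0.38) and Klf4 (-0.69 ± 0.23), all transcription factors, and all but Egr2 lost their call when some single libraries were left out. Nr4a1, an orphan receptor induced within minutes by adrenergic and other stimuli, had 734, 466, 421 and 303 CPM in the 4 muscle-rich BAT libraries and 87.0, 71.5 and 38.9 CPM in the other 3, against 2.83 to 45.9 CPM in SAT (4.46 ± 0.93, adjusted p = 0.0014). The highest SAT library was D4 replicate 3, without which the value was 5.30. What links Nr4a1 and muscle genes in these libraries was not tested.

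Skeletal muscle genes were called higher in BAT as a list, 19 of 19 with a median of 3.35, or 11 of 19 with library totals. Myh1, a fast myosin heavy chain, had 55.3, 23.3, 22.0 and 21.8 CPM in the 4 muscle-rich BAT libraries and 1.99, 0.172 and 0 CPM in the other 3, against 0 to 0.649 CPM in SAT (5.63 ± 1.29, adjusted p = 0.0024). Of the 15 muscle genes that could be tested without the 5 libraries named above, 1 was still called higher, and the median was -0.27. Without those libraries Ucp1 stood at 8.69, Cidea at 5.00, Acadvl at 3.40, Slc2a4 at 1.49 and Hk2 at 2.30. Each of these 5 values was larger than with all 14 libraries, but that fit also drops a SAT library. It keeps BAT D3 replicate 1, whose muscle genes summed to 582 CPM. Without SAT D4 replicate 3 alone, Ucp1 stood at 8.6. Whether muscle adds to the level of these genes was not tested.

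Other genes stood out by the size of their fold or by their level. Alb, which encodes albumin, had 3 counts in BAT and 1754 in SAT, a SAT over BAT ratio of 473 with a counting interval of 162 to 2298. Il1r2, the decoy receptor of interleukin 1, had 0.221, 0.724 and 1.89 CPM in BAT, against 34.9, 102 and 122 CPM in SAT (-6.58 ± 0.43, adjusted p = 1.1e-08). Lpl, the lipase that releases fatty acids from circulating triglyceride, was abundant in both, with 2682, 3158 and 4199 CPM in BAT and 6793, 7399 and 7976 CPM in SAT (-1.17 ± 0.10, adjusted p = 2.7e-09). Thrsp, a protein that stimulates fat synthesis, had 7429, 9878 and 15290 CPM in BAT, against 1608, 4484 and 5712 CPM in SAT (1.39 ± 0.17, adjusted p = 3e-06). Scd1, the stearoyl-CoA desaturase, was the most abundant nuclear transcript of the group higher in BAT, with 28168, 35820 and 51641 CPM in BAT and 12275, 19225 and 27540 CPM in SAT. Its ranges did not overlap, with a difference of 0.96 ± 0.18 (adjusted p = 0.00022).

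Each set alone gave a depot difference of similar extent. The D4 libraries alone gave 3191 genes higher and 3077 lower in BAT, and the D3 libraries alone 2850 higher and 2838 lower. The interaction of depot and set was called by edgeR for 0 genes of 13564, with 880 (6.49%) at an unadjusted p under 0.05, and DESeq2 called 16. Cd44 stood at -2.47 in D4 and -2.76 in D3, and Rtp4 at -2.34 in D4 and -3.00 in D3.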

How the data were processed

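The deposited table holds raw counts per gene that the authors made. Per the submitters' processing notes the tools were STAR 2.7.3a and featureCounts with the mouse build mm10, and an annotation release and a strand setting were not found in the labels or notes. Per the labels' protocols, libraries were Smart-seq2 from 2 ng of whole-tissue RNA. The table has 55011 genes, of which 32636 had a count in the 14 libraries.

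Counts were filtered (filterByExpr), scaled with trimmed-mean (TMM) factors and tested with edgeR 4.0.16 (limma 3.58.1, R 4.3.3), using its quasi-likelihood F test with set (D3 or D4) as a covariate, Benjamini-Hochberg adjustment over 13564 genes and a threshold of 0.05. Each SE is the fold change on the log2 scale divided by the root of its F statistic. CPM values use the scaled library sizes. A bound sets a group at 0 against a floor of 3 counts, and ratio intervals are exact 95% counting intervals, covering counting error only. Depot fits of DTR+ libraries, and a fit of 28 libraries for the genotype difference, followed the same design. Scripts were tested on simulated data. Counts of 18 pairs of replicates differed beyond sampling noise (chi-square over its degrees of freedom 7.14 to 33.1). Alternatives were DESeq2 1.42.0, other factors, no filter, a replicate block, each set alone, all 8 groups, each library left out and 5 libraries left out.

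Positions come from GENCODE M21 and promoter windows from RefSeq (GRCm38.p6), with 300 bases a window.

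The members and the 49 gene lists were chosen with earlier results of these data known. Named genes were the 4 markers, Foxp3 and Il2ra, those with the largest folds at a mean of 20 CPM or more without overlap, those with the largest differences in level, up to 4 called members of each list by p, all tested HOX genes and cytochrome oxidase isoforms, and small counts in full. A few genes that this rule names are not reported here. Further list members were picked with their values known.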

Additional observations from a re-analysis of the deposited data

Results flagged for a closer look

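Within groups of 4 libraries, 384 were examined for a library far from the other 3, and 28 had one. Chance flags about 1 in 20 groups. Many were in SAT D4 replicate 3. Its T and NK cell genes summed to 376 CPM (44.6 to 55.6 in the others), Cd3e stood at 26.7 CPM (0.353 to 1.75), Foxp3 at 3.68 CPM (0 to 0.27), Epsti1 at 43.3 CPM (16.0 to 19.4), Slc36a2 at 435 CPM (328 to 335), Bckdha at 65.9 CPM (59.8 to 60.1), Ptgds at 2.54 CPM (0) and Hoxa2 at 1.14 CPM (0.136 to 0.27), while Hoxb7 was low at 5.20 CPM (7.41 to 7.46) and Ifit3 at 41.6 CPM (48.1 to 48.9). Elsewhere in SAT D4, muscle genes summed to 416 CPM in replicate 4 (34.5 to 95.7), Lep was 710 CPM (404 to 421) and Sncg 852 CPM (617 to 638) in replicate 2, and Adrb1 was 1.75 CPM (0.508 to 0.705) and Atp5g3 351 CPM (428 to 432) in replicate 1.

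In BAT D4 replicate 3, Dio2 was 61.6 CPM (10.7 to 17.2), Tbx15 9.41 CPM (2.81 to 3.60), Adgre1 22.0 CPM (3.09 to 4.92) and Mx2 2.75 CPM (1.58 to 1.72). In BAT D4 replicate 1, Ppargc1b was low at 63.0 CPM (89.7 to 94.5), Hoxc6 at 0.687 CPM (2.33 to 2.46) and Zbp1 at 0.858 CPM (1.88 to 1.93), while Cidec was 1986 CPM (989 to 1060), Foxp3 0.343 CPM and Tmem26 0.343 CPM, the last pair at 0 in the other 3 libraries. In BAT D4 replicate 2, Tnfrsf18 was 2.11 CPM (0.858 to 1.06), and in replicate 4, Hoxa9 was 0.636 CPM (1.30 to 1.41) and Bscl2 446 CPM (516 to 529).

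The depot difference differed between DTR+ and DTR- fat, by the test of that difference, for 41 of 183 genes named in the text, 28 above 0 and 13 below. On the log2 scale, DTR+ minus DTR-, interferon genes stood at 2.72 for Zbp1, 1.86 for Irf7, 1.76 for Rtp4, 1.72 for Epsti1, 1.66 for Isg15, 1.51 for Ifit3, 1.38 for Psmb8, 1.16 for Oasl2, 1.09 for Rsad2, 1.07 for Bst2, 0.76 for B2m and 0.72 for H2-D1. Leukocyte and stromal genes stood at 2.73 for Plac8, 2.58 for Cd44, 2.10 for Ccr2, 1.91 for Il33, 1.79 for Adgre1, 1.38 for C4b, 1.23 for Cfb, 1.03 for Col3a1, 0.74 for Cd74 and 0.60 for Igf1. The immediate-early genes Egr2 and Atf3 stood at 3.26 and 2.35, and the others above 0 were Gamt at 0.91, Klhl13 at 0.79, Psat1 at 0.68 and Plin4 at 0.55. Below 0 were genes of fuel use, at -0.92 for Thrsp, -0.88 for Ucp3, -0.68 for Gpd1, -0.66 for Acacb, -0.65 for Slc2a4, -0.45 for Mgll, -0.43 for Acadvl, -0.36 for Cox6a1, -0.35 for Bckdha, -0.35 for Bscl2, -0.34 for Cox8a, -0.32 for Cox4i1 and -0.31 for Atp5g3.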

How the results depend on the processing

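The count of genes that differed between depots in DTR- fat was 7955 with the replicate block and 7825 to 8124 with single libraries left out, against 8155. Beyond log2 of 1 it was 4246 to 4541 with single libraries left out. In their deviations, same-numbered BAT and SAT libraries correlated at 0.04 to 0.12 in D4 and at -0.12 to -0.03 in D3, and not every library correlated best with its own number, so the numbers were not taken to pair the samples. With the replicate block the genotype difference was called for 940 genes, and of the genes named here 176 kept their side of the threshold and 5 lost their call, among them Il2ra, Hoxd8 and Atf3. With library totals the genotype difference was called for 1920 genes, against 1116, and for 840 to 1286 with single libraries left out. For the interaction of depot and set, 0 genes became 16 with DESeq2, 1 with library totals, 44 without a filter and 0 to 2 with single libraries left out. The sign turned for Lhx8 (-0.16), Fabp4 (-0.43) and Atp5j (-0.38) with library totals, for Fabp4 (-0.02) in D4 alone and (-0.03) with all 8 groups, for Atp5j (-0.14) in D3 alone and (-0.02) with all 8 groups, and for Cox6a2 (-0.31) without 5 libraries. The cause was not tested. Without those 5 libraries, 3315 genes were higher and 3599 lower in BAT, and 164 of the genes named kept their side of the threshold. With single libraries left out, values moved by over 1.5 times for Cd3e (-3.58 without BAT D3 replicate 2), Alb (-10.81), Hoxc9 (-9.59) and Tmem26 (-5.66) without BAT D3 replicate 3, Ccl24 (-5.07) and Lyve1 (-5.96) without BAT D4 replicate 1, Il1rl1 (-3.35) without BAT D4 replicate 4, Cd3e (-1.30), Nr4a1 (5.30) and Hoxa2 (2.98) without SAT D4 replicate 3, Fer1l6 (9.07) and Gata3 (-1.54) without SAT D4 replicate 4, Cox6a2 (4.15) without SAT D3 replicate 1 and Esrrg (5.61) without SAT D3 replicate 3. Depth limits genes such as Foxp3 and Zic1, which had too few counts to test.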
